A study of Mus musculus with 3 samples.

Results

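Ets-1 precipitation at the mouse insulin genes Ins1 and Ins2 was described in Min6 cells, an insulin-secreting line from a mouse insulinoma that expresses SV40 T antigen. The members are all regions for which the authors' annotation gave Ins1 or Ins2 as the nearest gene. They came to 185 of the 543367 regions in the deposited comparison table, 168 for Ins1 and 17 for Ins2. The 3 groups held 1 library each, so differences between them are unreplicated and carry no p-value. In the first group, an adenovirus overexpressing Ets-1 (Ad-Ets-1) had been present for 24 h before chromatin was precipitated with an antibody against Ets-1. The control cells received a GFP adenovirus (Ad-GFP) for the same time, and their chromatin was precipitated with the same antibody against the cells' own Ets-1. The third library was unprecipitated input chromatin, for which the labels name no virus. All cells were grown in 25 mM glucose and fixed in 1% formaldehyde. Whether the virus raised Ets-1 protein, and whether insulin was made, was not analysed here, since no RNA or protein was measured.

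Mice carry a pair of insulin genes. Ins2 is the ancestral gene and lies beside Igf2, whereas Ins1 arose from it by retroposition to another chromosome and kept a promoter like its parent's. Both are read almost only in pancreatic β cells, where Pdx1 binds TAAT elements, Neurod1 with its E-protein partners binds E-boxes and Mafa binds a further element, all within a short distance upstream of the start site. Ets-1 belongs to the ETS family of transcription factors, which recognise a GGAA core. In ChIP-seq, DNA bound by a factor is pulled down with an antibody and sequenced, and the reads over a region are set against those of input chromatin, which shows how often a site is sequenced without any precipitation.

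The libraries were shallow: the deposited values imply 1938473 reads in Ad-Ets-1 cells, 1775757 in Ad-GFP cells and 3937471 in the input. Listed regions held 42.8% of the Ad-Ets-1 reads, 54.8% of the Ad-GFP reads and 2.96% of the input reads, and 91.0% of regions had 2 or fewer reads in Ad-Ets-1 cells and 89.3% in Ad-GFP cells. Ratios are of reads scaled to these totals. In brackets stand 95% exact binomial intervals, which cover counting error only and count 2 reads of a precipitated library as 1 DNA fragment. Where a library held 0 reads, the ratio was taken against a floor of 3 reads and has no interval. Coordinates are those of mm10, 1-based.

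Calls at the insulin genes were unevenly split between the genes. Of the 17 Ins2 regions, 3 were called as peaks in Ad-Ets-1 cells only, 13 in Ad-GFP cells only and 1 in both. Of the 168 Ins1 regions, 57 were called in Ad-Ets-1 cells only, 96 in Ad-GFP cells only and 15 in both. Over the whole table these shares were 37.5%, 56.4% and 6.13% of regions in the same order of calls. By the authors' deposited log2 ratio, 0 Ins2 regions and 46 Ins1 regions were 2-fold or more higher in Ad-Ets-1 than in Ad-GFP cells, where 29.9% of all regions were. Ratios lower by 2-fold or more were found in 12 Ins2 and 89 Ins1 regions, where 52.6% of all regions had one. The Ins1 shares, 27.4% higher and 53.0% lower, were thus near those of the table.

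The sequences behind the main sites are given first. The upstream Ins1 promoter (chr19:52264047-52264296, plus strand, 250 bases up to the start site, from RefSeq on GRCm38) is shown because no listed region covers it; GGAA cores on either strand are in capitals. The next pair is the coding stretch of the only Ins1 region near the gene (chr19:52264723-52264950, plus strand) and the Ins2 coding stretch aligned to it (chr7:142678713-142679434, minus strand, joined across an intron). Both are shown because the genes are near copies; capitals mark the bases that differ between them.
Ins1 promoter: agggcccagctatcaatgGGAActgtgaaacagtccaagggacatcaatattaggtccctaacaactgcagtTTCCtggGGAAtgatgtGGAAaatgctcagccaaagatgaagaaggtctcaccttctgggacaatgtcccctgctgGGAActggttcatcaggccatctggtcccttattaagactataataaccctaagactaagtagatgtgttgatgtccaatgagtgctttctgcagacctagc
Ins1 coding stretch: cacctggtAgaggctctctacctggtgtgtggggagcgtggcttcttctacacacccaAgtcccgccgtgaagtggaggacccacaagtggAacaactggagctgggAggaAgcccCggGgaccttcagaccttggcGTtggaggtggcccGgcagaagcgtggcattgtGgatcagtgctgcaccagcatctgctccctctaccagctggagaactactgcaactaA
Ins2 coding stretch: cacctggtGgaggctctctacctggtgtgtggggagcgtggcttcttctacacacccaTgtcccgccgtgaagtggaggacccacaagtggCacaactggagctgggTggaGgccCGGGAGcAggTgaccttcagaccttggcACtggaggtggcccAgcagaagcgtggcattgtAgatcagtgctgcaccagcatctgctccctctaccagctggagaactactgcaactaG

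The Ins2 promoter was the most read insulin site in each of the 3 libraries, input included. Its region (chr7:142679634-142680016, 383 bp; Ins2 is ENSMUSG00000000215, on the minus strand) runs from 290 bp upstream of the main Ins2 start site to 93 bp beyond it, over the part of the promoter where the β-cell factors bind. It held 28 reads in Ad-Ets-1 cells, 19 in Ad-GFP cells and 21 in the input. The Ad-Ets-1 count was the highest, but the ratio over Ad-GFP cells was 1.35 (0.530 to 3.23), an interval that spans 1. Over input the ratio was 2.71 (1.27 to 5.58) in Ad-Ets-1 cells and 2.01 (0.888 to 4.69) in Ad-GFP cells. Both turn below 1, to 0.188 in Ad-Ets-1 cells and 0.108 in Ad-GFP cells, if reads are scaled to those in listed regions only. That scaling sets all listed regions together to 1. By library totals they gave 14.4 times the input in Ad-Ets-1 cells and 18.5 times in Ad-GFP cells. A value below 1 is thus below that pooled ratio, and does not show fewer reads than in the input. The deposited summit lay 208 bp upstream of the start site.

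Among the 41781 regions annotated as promoters, 53 (0.127%) held as many reads as Ins2 in Ad-Ets-1 cells, 67 (0.160%) in Ad-GFP cells and 36 (0.0862%) in the input. The rank was thus highest in the input. Of the 1046 promoter regions within 5% of its length, Ins2 included, 4 held as many reads in Ad-Ets-1 cells, 9 in Ad-GFP cells and 3 in the input. The 36 regions with at least 21 input reads, Ins2 among them, had a median ratio of Ad-Ets-1 to input of 6.35 and a range of 2.03 to 13.9, and 31 of them, itself included, were at or above Ins2. For Ad-GFP cells the median was 6.37, the range 1.46 to 12.8, and 33 were at or above Ins2. Among these 36 regions Ins2 was therefore near the low end in both precipitations, but it also has the fewest input reads the set admits. Most of them hold far more: 0.0742% of all promoter regions held at least 50 input reads, against 0.0862% with at least 21. The set is thus not matched to Ins2 in input reads. What raised its input reads was not tested.

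**Figure D1:**
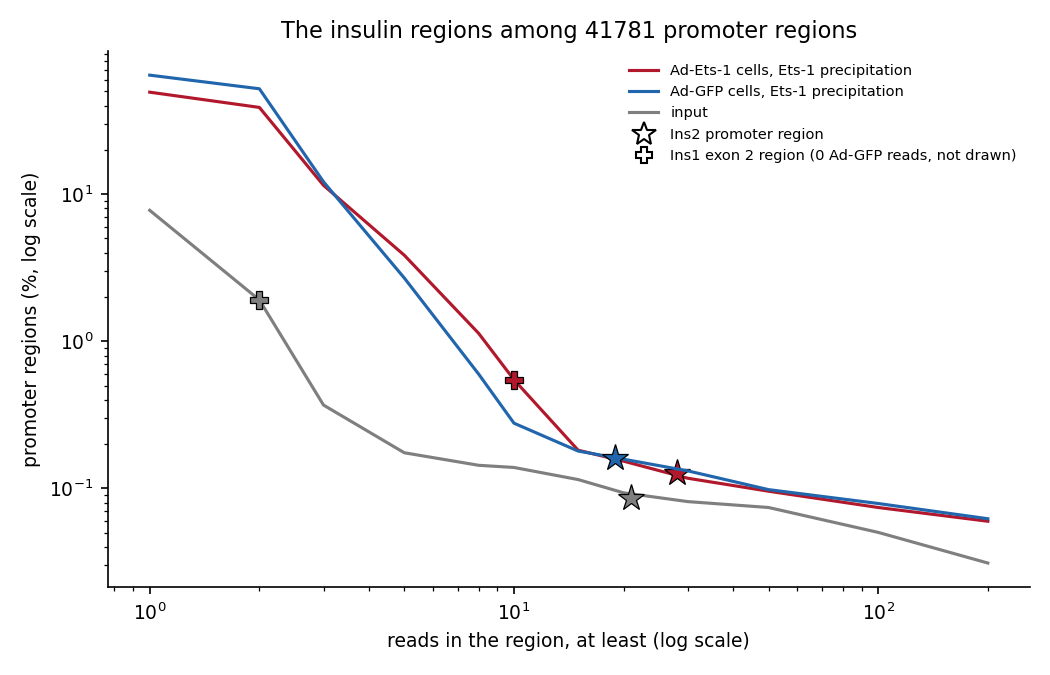
Share of the 41781 promoter regions (percent, log scale) that hold at least a given number of reads (log scale) in each library, with the Ins2 promoter region as stars and the Ins1 exon 2 region as crosses. Ins2 lies in the far tail of each library, at 28 reads in Ad-Ets-1 cells, 19 in Ad-GFP cells and 21 in the input, and the Ins1 region at 10 reads in Ad-Ets-1 cells and 2 in the input.

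Peak calls at Ins2 did not follow the reads closely. In the authors' deposited lists, which hold 237322 peaks for Ad-Ets-1 cells and 339856 for Ad-GFP cells, the promoter region was a peak in Ad-Ets-1 cells only, where it has a fold enrichment of 2.75 and a q of 0.285. In Ad-GFP cells its 19 reads made no peak, although 64 of the 67 promoter regions with 19 or more Ad-GFP reads were called. An Ad-GFP peak annotated as an Ins2 promoter does exist, but at another place: chr7:142742878-142743115 lies 63.2 kb upstream, 266 bp from the start of Ins2-209, a long transcript that reaches back over the upstream DNA. It held 0 reads in Ad-Ets-1 cells, 2 in Ad-GFP cells and 0 in the input. A promoter peak under the Ins2 name in both lists therefore refers to separate sites. A small region 1.90 kb past the start site, downstream of the gene body, held 2 reads in Ad-Ets-1 cells, 4 in Ad-GFP cells and 1 in the input.

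Over the DNA upstream of Ins2, most reads came from Ad-GFP cells. Besides the far promoter, 14 regions lie between 10.5 and 56.2 kb upstream and are annotated as introns, because Ins2-206 and Ins2-209 start 19784 and 63655 bp upstream of the main start; all are intergenic with respect to the short Ins2 unit of 1068 bp. Together the 15 upstream regions held 4 reads in Ad-Ets-1 cells, 39 in Ad-GFP cells and 2 in the input, a ratio of Ad-Ets-1 to Ad-GFP cells of 0.0940 (0.0104 to 0.377). Over all intron regions of the table the ratio was 0.710 (0.704 to 0.716). In Ad-Ets-1 cells 12 of the 15 regions had 0 reads, a share of 80% against 52.6% of all intron regions, and in Ad-GFP cells 2 of 15 had 0 reads, against 35.8%.

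By calls, 12 of the 15 upstream regions were Ad-GFP only, 2 Ad-Ets-1 only and 1 in both, where 57.5% of all intron regions were Ad-GFP only and 36.7% Ad-Ets-1 only. By the authors' deposited log2 ratio, 12 of 15 were 2-fold or more lower in Ad-Ets-1 cells, where 53.5% of intron regions were, and 0 were 2-fold or more higher, where 29.3% were. The calls and reads are not separate evidence, since a region is in the table only if it was called in one of these libraries. As 12 of the 15 were listed through the Ad-GFP call alone, the ratio and its interval depend on that selection and are a description, not a test. The most read upstream site (chr7:142718522-142719081, 38.8 kb upstream) held 0 reads in Ad-Ets-1 cells, 8 in Ad-GFP cells and 1 in the input, a ratio of 0.344 with the Ad-Ets-1 count at the floor. Its Ad-GFP reads were 17.7 times the input (1.76 to 874), where the ratio was 30.5 over all intron regions. Counted as fragments, the lower limit of its Ad-GFP to Ad-Ets-1 ratio was 0.721, and counted as reads 1.86. The limit thus lies on either side of 1 depending on the unit counted. The site was listed through its Ad-GFP call alone, so these limits describe the counts and do not test the difference. Each of the other 14 held at most 2 reads in Ad-Ets-1 cells and at most 4 in Ad-GFP cells.

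The 201 bases around the summit of that site (chr7:142718559-142718759, plus strand) are given with GGAA cores on either strand in capitals, since it was the most read Ins2 site away from the promoter; they hold 4 such cores, and 81 of the bases are masked as repeats.
Ins2 upstream summit: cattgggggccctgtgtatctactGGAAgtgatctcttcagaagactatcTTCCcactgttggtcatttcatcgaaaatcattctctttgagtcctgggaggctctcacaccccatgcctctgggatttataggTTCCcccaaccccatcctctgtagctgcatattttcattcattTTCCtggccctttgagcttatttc

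**Figure D2:**
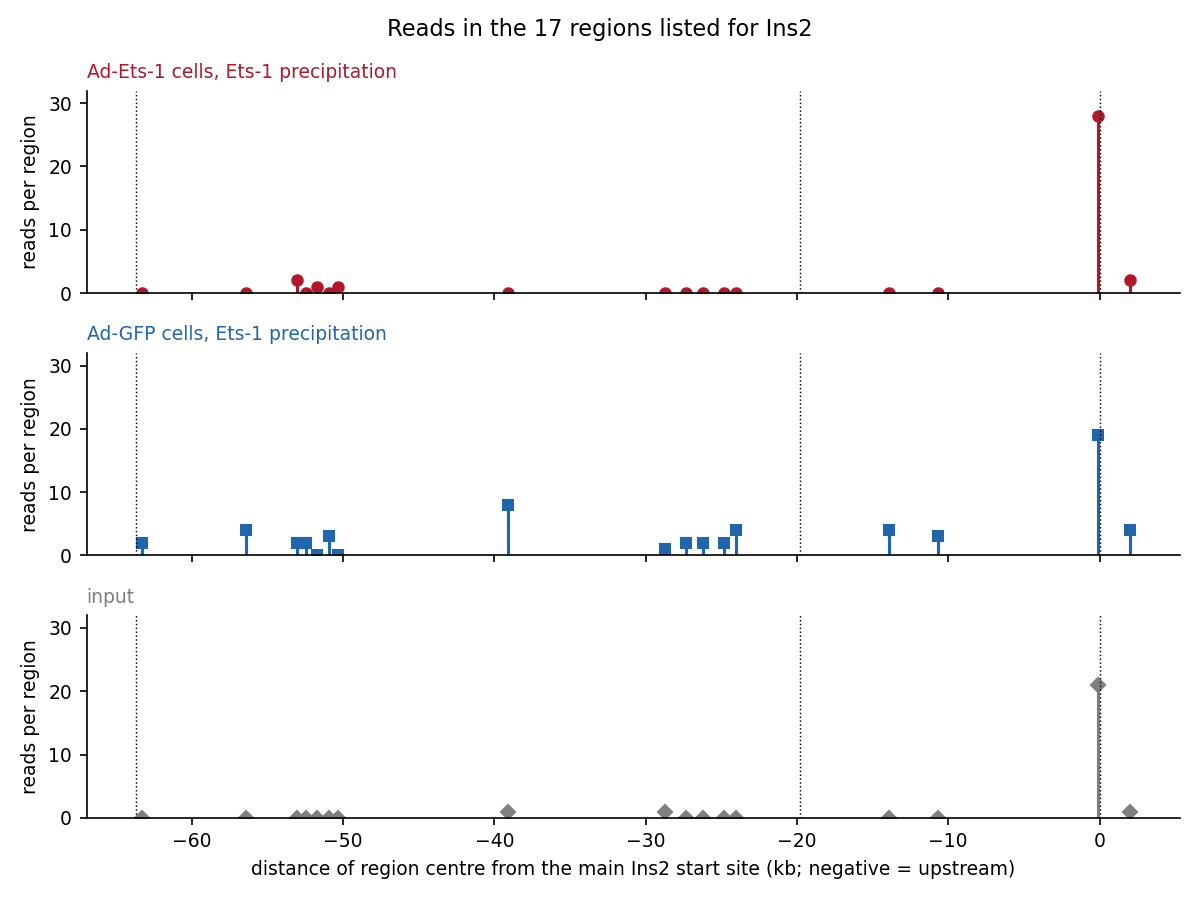
Reads per region (vertical axis) in the 17 regions listed for Ins2, by distance of the region's centre from the main start site in kb, negative upstream, for each of the 3 libraries; dotted lines mark the main start and the starts of the longer transcripts. The promoter stands out in all libraries, while the upstream regions hold 0 to 2 reads in Ad-Ets-1 cells, 0 to 8 in Ad-GFP cells and 0 to 1 in the input.

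Summed over all 17 Ins2 regions, the libraries held 34 reads in Ad-Ets-1 cells, 62 in Ad-GFP cells and 24 in the input, a ratio of Ad-Ets-1 to Ad-GFP of 0.502 (0.261 to 0.936). Scaled to reads in listed regions it was 0.643 (0.334 to 1.20), an interval that spans 1. This sum mixes a promoter with more reads in Ad-Ets-1 cells, within counting error, and upstream DNA with fewer. Without the promoter region the ratio was 0.128 (0.0239 to 0.416). The regions within 50 kb that carry another gene's name all belong to Igf2, the imprinted growth factor gene next door. Its 5 regions held 5 reads in Ad-Ets-1 cells, 13 in Ad-GFP cells and 2 in the input, at most 4 in any one.

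At Ins1 the only region near the gene lay in exon 2, not upstream of the start site. Although annotated as a promoter, the region (chr19:52264723-52265002, 280 bp; Ins1 is ENSMUSG00000035804, on the plus strand) begins 426 bp after the start site and lies wholly in exon 2. Of its length, 225 bp are coding and the rest is the 3′ UTR. It held 10 reads in Ad-Ets-1 cells, 0 in Ad-GFP cells and 2 in the input, which is 3.05 times the Ad-GFP floor and 10.2 times the input (1.66 to 107), where all promoter regions together gave 7.84. That pooled value rests heavily on single regions, with highest counts of 122344 among 257314 Ad-Ets-1 reads and 38590 among 66636 input reads. It is not the ratio of a usual promoter region, and the interval spans it. The exon 2 ratio to input is 0.703 if scaled to reads in listed regions, which sets all listed regions together to 1. Of the precipitations, the Ad-Ets-1 library alone held reads here. Per length, the region held 35.7 reads per kb in Ad-Ets-1 cells, 0 in Ad-GFP cells and 7.14 in the input, where the Ins2 promoter region held 73.1, 49.6 and 54.8 reads per kb in those libraries. Counted as fragments, however, the lower 95% limit of the Ad-Ets-1 to Ad-GFP ratio was 0.839, and counted as reads 2.05, so the limit lies on either side of 1 depending on whether both mates of a pair are counted apart. The region was listed through its Ad-Ets-1 call alone, so these limits describe the counts and do not test the difference.

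Of all promoter regions, 229 (0.548%) had at least 10 reads in Ad-Ets-1 cells, and 8 of the 791 regions within 5% of its length had. In the input 2 reads or more were found in 798 promoter regions (1.91%). The authors' deposited list gives the exon 2 peak a fold enrichment of 3.47, which 1.53% of that list's peaks reach, and a q of 0.285, which 14.6% reach. Over the upstream promoter printed above no region was listed in either precipitation: the nearest upstream region ends 11229 bp before the start site, and the next one downstream begins 7846 bp after the exon 2 region ends. A site without a listed region may still hold reads, since counts are given for listed regions only.

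The exon 2 region falls in a stretch that is much alike between the genes. The coding sequences of Ins1 and Ins2, 327 and 333 bases, are identical at 302 of 333 aligned positions (90.7%), and the stretch within the region at 216 of 234 (92.3%), with a longest shared run of 56 bases. Of the 245 stretches of 36 bases in the region, 35 (14.3%) also occur in Ins2, of the 231 of 50 bases, 7 (3.03%) do, and of the 206 of 75 bases, 0 do. The read length and the handling of reads that match both genes were not given in the sources used here, so reads shared by both genes cannot be told apart in these counts. No listed region covers the matching Ins2 coding stretch.

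The other 167 Ins1 regions lie far from the gene in intergenic DNA, and their reads and calls were near those of all distal intergenic regions. Their distances to the annotated start run from 11.3 to 234 kb for the 60 upstream and from 8525 to 365909 bp for the 107 downstream. They bear the Ins1 name by the nearest-gene rule of the annotation. They held 186 reads in Ad-Ets-1 cells, 238 in Ad-GFP cells and 11 in the input. The ratio of Ad-Ets-1 to Ad-GFP was 0.716 (0.540 to 0.947), where all distal intergenic regions gave 0.731 and those of chromosome 19 gave 0.747. Upstream of Ins1 the ratio was 0.611 (0.371 to 0.971) and downstream 0.783 (0.545 to 1.11), and these intervals overlap.

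Calls gave a like picture. Of the 167, 56 (33.5%) were called in Ad-Ets-1 cells only, where 38.2% of all distal regions were, 96 (57.5%) in Ad-GFP cells only, where 55.6% were, and 15 (8.98%) in both, against 6.24%. By the authors' deposited log2 ratio, 45 were 2-fold or more higher in Ad-Ets-1 cells (26.9% against 30.3%) and 89 lower (53.3% against 52.1%).

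**Figure D3:**
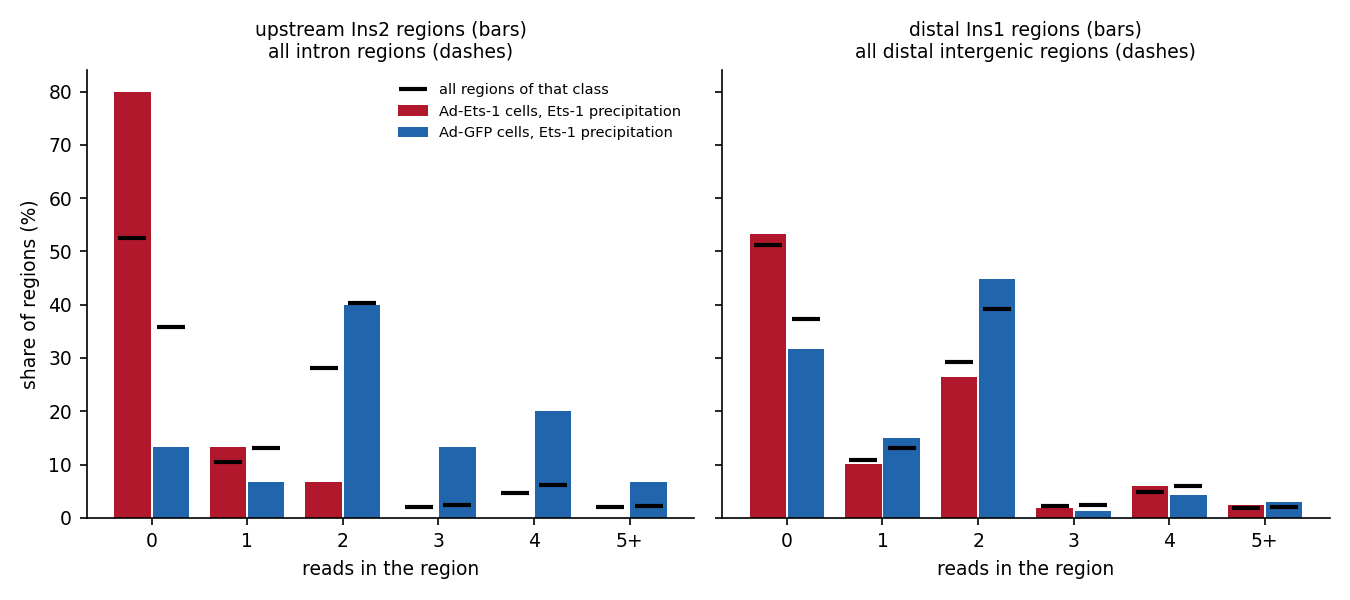
Share of regions (percent) with 0, 1, 2, 3, 4 or 5 and more reads in Ad-Ets-1 cells and in Ad-GFP cells, for the 15 upstream Ins2 regions (left) and the 167 distal Ins1 regions (right); black dashes give the same share over all intron or all distal intergenic regions. The upstream Ins2 bars depart from the dashes, with 80% at 0 reads in Ad-Ets-1 cells against 52.6%, while the distal Ins1 bars lie near theirs.

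A few distal Ins1 sites held more than 4 reads: 4 in Ad-Ets-1 cells, where 2.09% of all listed regions do, and 5 in Ad-GFP cells, where 2.13% do. The most read of all (chr19:52370457-52371103, 106 kb downstream) held 12 reads in Ad-Ets-1 cells, 0 in Ad-GFP cells and 2 in the input, 3.66 times the Ad-GFP floor and 12.2 times the input (2.18 to 123). It was listed through its Ad-Ets-1 call alone, so its reads describe the site and do not test the difference. Over all distal intergenic regions the Ad-Ets-1 reads were 25.7 times the input, so by that ratio the site was below its class. Its fold enrichment in the authors' deposited list was 3.01, which 1.77% of that list's peaks reach. Together with the exon 2 region the site made up the 2 insulin peaks of fold 3 or more in Ad-Ets-1 cells, and in Ad-GFP cells there were 0. The highest insulin fold in the Ad-GFP list was 2.81, which 6.22% of its peaks reach. The share of the Ad-GFP list at fold 3 is not given here, so 2 against 0 does not set the libraries apart. A pair of regions about 132 and 131 kb upstream held 8 and 6 reads in Ad-Ets-1 cells and 0 each in Ad-GFP cells and in the input. In the other direction, 3 regions held 0 reads in Ad-Ets-1 cells and 6 in Ad-GFP cells, at 165 and 128 kb upstream and 214 kb downstream.

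The summit of the most read distal site, 100 bases to either side (chr19:52370934-52371134, plus strand), is printed because it carried the most Ad-Ets-1 reads of the Ins1 regions; GGAA cores on either strand, of which there are 2, are in capitals, and 77 bases are masked as repeats.
Ins1 distal summit: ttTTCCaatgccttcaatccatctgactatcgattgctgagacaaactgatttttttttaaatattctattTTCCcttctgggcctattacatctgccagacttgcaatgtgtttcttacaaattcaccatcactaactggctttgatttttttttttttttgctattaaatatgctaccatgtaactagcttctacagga

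**Figure D4:**
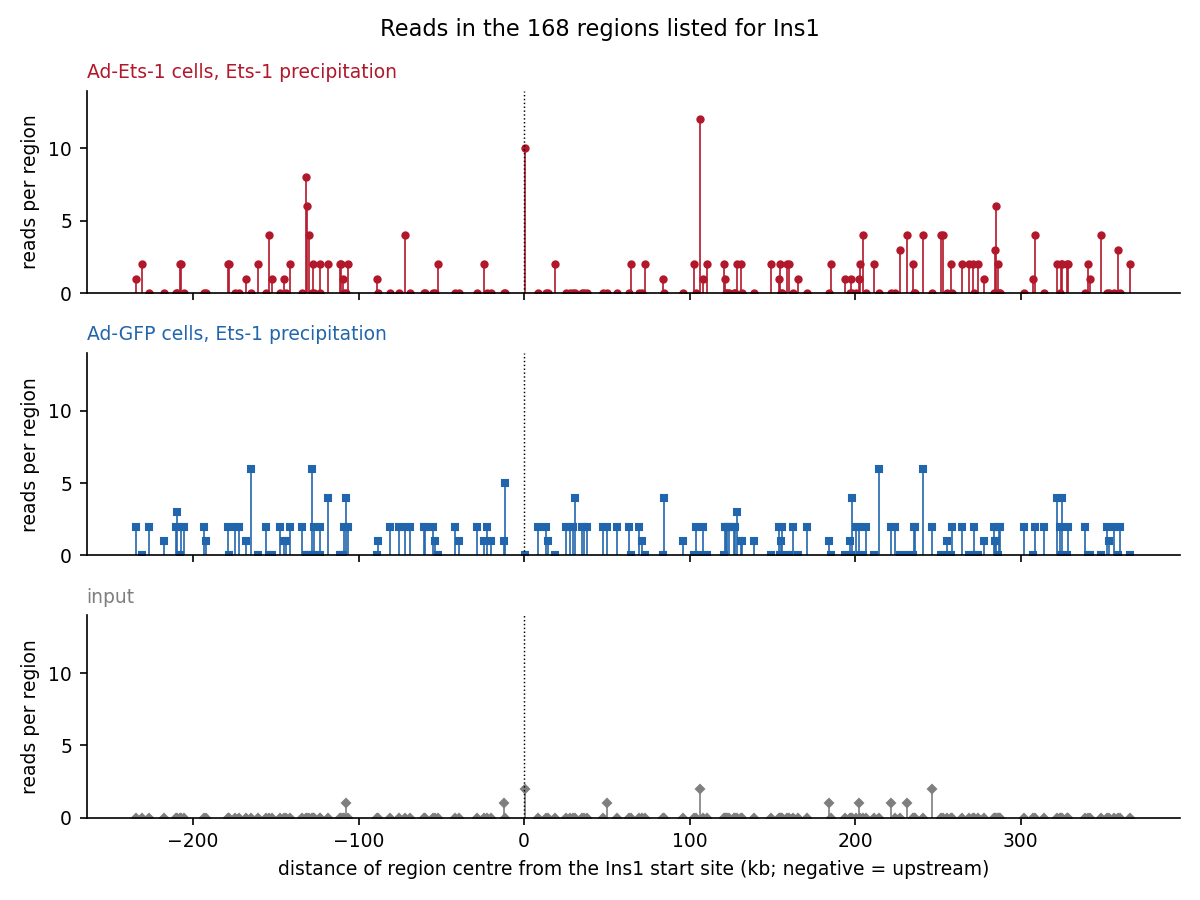
Reads per region (vertical axis) in the 168 regions listed for Ins1, by distance of the region's centre from the start site in kb, negative upstream, for each of the 3 libraries; the dotted line marks the start site. The highest points in Ad-Ets-1 cells are 12 reads 106 kb downstream and 10 reads in exon 2, the highest in Ad-GFP cells is 6 reads, and the input reaches 2.

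Close to Ins1, as upstream of Ins2, reads were more often those of Ad-GFP cells. Within 50 kb of the gene lie 22 listed regions, all under the Ins1 name. They held 14 reads in Ad-Ets-1 cells, 40 in Ad-GFP cells and 4 in the input, a ratio of 0.321 (0.115 to 0.789), where all distal intergenic regions gave 0.731. Of the 22, 19 were called in Ad-GFP cells only, where 55.6% of distal intergenic regions were. Apart from the exon 2 region, the other 21 held 4 reads in Ad-Ets-1 cells, at most 2 in any one, and 40 in Ad-GFP cells, at most 5 in any one, and 19 of them had 0 reads in Ad-Ets-1 cells, where 51.1% of distal intergenic regions had 0. These sums, too, are over regions listed through a call, mostly that of Ad-GFP cells. In the same window around Ins2, all 15 regions together held 35 reads in Ad-Ets-1 cells and 62 in Ad-GFP cells, a ratio of 0.517 (0.280 to 0.981), and the 14 other than the promoter held 7 in Ad-Ets-1 cells and 43 in Ad-GFP cells. Leaving out the region with the most Ad-Ets-1 reads lowers such a ratio by construction.

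No insulin peak would pass a q of 0.05. The smallest q among them was 0.285 in the Ad-Ets-1 list and 0.274 in the Ad-GFP list. Few peaks of either list have a smaller q. A q of 0.285 ranks 3740 among 237322 Ad-Ets-1 peaks, and 0.274 ranks 3070 among 339856 Ad-GFP peaks. The lack of a passing peak therefore does not set the insulin genes apart. In the Ad-Ets-1 list, 58 of 72 Ins1 peaks and 3 of 4 Ins2 peaks stood at that list's largest q of 0.820, as did 85.1% of all its peaks. In the Ad-GFP list, 103 of 111 Ins1 peaks and 11 of 14 Ins2 peaks stood at its largest q of 0.764, as did 88.3% of all. Median fold enrichments were 1.86 in Ad-Ets-1 cells and 1.87 in Ad-GFP cells for either gene, the medians of the whole lists. Most Ins1 peaks shared a single deposited width within a list, 250 bp for 59 of 72 in Ad-Ets-1 cells and 239 bp for 97 of 111 in Ad-GFP cells.

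The longer consensus words that ETS factors prefer were found in few insulin regions. CCGGAAGT or CAGGAAGT, on either strand, was in 0 of the 17 Ins2 regions and in 3 of the 167 distal Ins1 regions (1.80%, against 1.75% of all distal regions). Neither the Ins2 promoter region nor the Ins1 exon 2 region held it, where 4.40% and 3.29% of promoter regions of similar length did. The GC content of the 2 regions was 53.3% at Ins2 and 58.2% in Ins1 exon 2, where the medians of promoter regions of similar length were 44.1% and 43.9%. The bare GGAA core, a word of only 4 letters, was in 16 of 17 Ins2 regions and in 90.4% of the distal Ins1 regions, against 93.2% of all distal regions. In the Ins1 promoter, from 250 bases before to 50 after the start, GGAA occurs 6 times, at 232, 178, 171, 161 and 102 bases upstream and 15 downstream, and some copy of it is in 96.0% of 32851 RefSeq promoters; the longer words, in 7.07% of them, do not occur. The E-box GCCATCTG, in 1.32% of promoters, occurs 86 bases upstream and once after the start, and TAAT, in 58.0%, at 201, 71 and 61 bases upstream. These matches are letters in a window and say nothing of binding. Masked repeats made up at least 50% of 2 of the 17 Ins2 regions and of 47 of the distal Ins1 regions (28.1%, against 35.6% of all distal regions).

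By its reads in the 3 libraries, the Ins2 promoter was most like those of Litaf, Ncoa1, Mafa, Slc5a6 and Dnmt3a, in that order, by Euclidean distance of log2 RPM (with 1 read added) among 20159 promoter regions of named genes. Litaf, a lysosomal membrane protein gene, was nearest at a distance of 0.69, with 44 reads in Ad-Ets-1 cells, 23 in Ad-GFP cells and 20 in the input. Mafa, whose product activates the insulin promoter, was at 0.86 with 39 reads in Ad-Ets-1 cells, 32 in Ad-GFP cells and 20 in the input. The distance takes no account of region length. The Mafa region is 1046 bp long, so its reads are spread over more DNA than those of the shorter Ins2 region. Ncoa1, a nuclear receptor coactivator, held 26 Ad-Ets-1, 32 Ad-GFP and 18 input reads. Slc5a6, a vitamin transporter, held 46 Ad-Ets-1, 40 Ad-GFP and 17 input reads, and Dnmt3a, a DNA methyltransferase, 22 Ad-Ets-1, 47 Ad-GFP and 18 input reads. What these promoters share with Ins2 by this measure is a high count in every library, where the 99th percentile of promoter regions was 8 reads in Ad-Ets-1 cells, 6 in Ad-GFP cells and 2 in the input. For the Ins1 exon 2 region the nearest were Borcs5, Grtp1 and Hk1, each with the same 10 Ad-Ets-1, 0 Ad-GFP and 2 input reads, and Dazap2 and Hes1, each with 11 Ad-Ets-1, 0 Ad-GFP and 2 input reads. Exact ties at such low counts make this likeness weak.

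**Figure D5:**
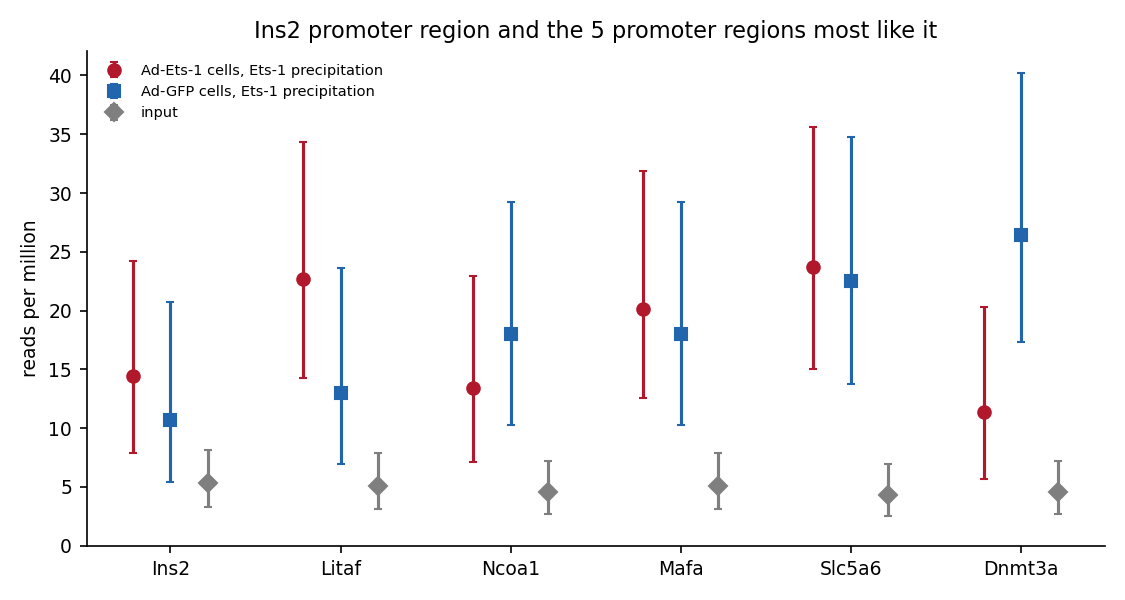
RPM (reads scaled to library size, vertical axis) in the Ins2 promoter region and the 5 promoter regions most like it, for each of the 3 libraries; bars are 95% exact Poisson intervals for counting error, on fragments in the precipitated libraries. Ins2 holds 28 reads in Ad-Ets-1 cells, 19 in Ad-GFP cells and 21 in the input, and its Ad-GFP level is the lowest of the 6.

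Genes that act on insulin were also looked up by their promoter peaks. Of 31 transcription factors described at the insulin promoter, 28 were named in the files, of which 11 had a promoter peak in Ad-Ets-1 cells (39.3%) and 17 in Ad-GFP cells (60.7%), 9 of them in both. Over all 19054 named genes the shares were 37.7% in Ad-Ets-1 cells and 48.6% in Ad-GFP cells. The share of all genes with a promoter peak in both is not given here, so counts in both cannot be set against it. Of 27 genes of insulin synthesis, processing and storage, 20 were named, of which 6 (30%) had a promoter peak in Ad-Ets-1 cells and 9 (45%) in Ad-GFP cells, 3 in both. Promoter regions of 5 or more reads in either precipitation belonged to 3 of the 28 and 3 of the 20 genes, where 8.39% of all genes had one. Besides Mafa these were Pax6, a regulator of islet hormone genes, with 8 reads in Ad-Ets-1 cells and 0 in Ad-GFP cells, and Crem, a cAMP-responsive factor, with 6 Ad-Ets-1 and 0 Ad-GFP reads. In the synthesis list they were Scg3, a granule protein gene, with 6 reads in Ad-Ets-1 cells and 2 in Ad-GFP cells, Pdia6, a disulphide isomerase of the endoplasmic reticulum, with 5 Ad-Ets-1 and 0 Ad-GFP reads, and Abcc8, the sulphonylurea receptor of the KATP channel, with 6 Ad-Ets-1 and 4 Ad-GFP reads. These reads are those of a single promoter region per gene, out of 9 listed for Pax6, 3 for Crem, 2 for Pdia6 and 6 for Abcc8. At Pax6, Crem and Pdia6 the region given was called in Ad-Ets-1 cells only, and at Abcc8 in both. Pax6, Crem and Pdia6 each also had a promoter peak in Ad-GFP cells, so their 0 Ad-GFP reads describe that region and not the gene. The Scg3 ratio was 2.75 (0.221 to 144) and that of Abcc8 1.37 (0.157 to 16.5), both spanning 1. Mafa and Pdia6 were the members with a promoter peak at a q of at most 0.05, both in Ad-Ets-1 cells, and 0 members had one in Ad-GFP cells. The share of all genes with such a peak is not given here, so these counts do not set the lists apart from other genes.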

How the data were processed

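Per the labels' protocols, chromatin of Min6 cells that received Ad-Ets-1 or Ad-GFP was precipitated, and sequenced in pairs beside an input. The submitters' processing notes name build mm10, the aligner BWA (0.7.12), the peak caller MACS2 (2.1.0), Trimmomatic and FastQC. Settings, read length and any use of the input by MACS2 were not given in the sources used here. Per the file headers, each peak in the authors' lists, called per library, has a score, a fold (a ratio), and p-values and q-values as −log10. In the comparison table they deposited counts per region, RPM values, their ratio and its log2 value. Peak values were used only within a list.

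Library totals were recovered from the deposited RPM, which equal count plus 1 over the total. Even counts made up 72.0% and 74.5% of nonzero values in the Ad-Ets-1 and Ad-GFP libraries, but 19.0% in the input, so intervals used 2 reads per fragment in the precipitated libraries and single reads in the input. Intervals and floors cover counting error only; PCR copies are not independent molecules. Peak list starts were raised by 1. Gene structure came from GENCODE and promoter sequence from RefSeq, both on GRCm38; the RefSeq table matched Ins1 only. Computation used scipy 1.17.1 for intervals, Biopython 1.88 for alignment and pandas 2.3.3 under Python 3.11.15. On simulated counts with true ratios of 1 and 4, the intervals held the true ratio in 98.0% and 97.1% of 900 draws. The draws were independent fragments, as the intervals assume, without selection through a peak call or PCR copies. They therefore check the computation only. The genes named beside Ins1 and Ins2 are the 5 with the smallest distance to each region, leaving out predicted and olfactory or vomeronasal receptor genes, list members with 5 or more promoter reads, and genes with regions within 50 kb. The regions, gene lists and rules were chosen with earlier results of these data known. Alternatives were other totals, other treatment of 0 reads, other distance, q and fold limits and other length scaling.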

Additional observations from a re-analysis of the deposited data

How the results depend on the processing

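No paired analysis was possible because there was 1 library per group, so no library could be left out either. Of 58 values under alternatives, 8 crossed 1 from a ratio whose interval did not span it, and 21 others moved, a ratio beyond its counting interval, and a count, share or ratio without an interval by over 1.5 times. Ratios to input depended on the totals: with listed reads as totals, those of the Ins2 promoter were 0.188 (Ad-Ets-1) and 0.108 (Ad-GFP) and that of the Ins1 exon 2 region 0.703. When the top region of each chromosome was left out as well, they were 0.126, 0.0691 and 0.474. The input has 2.96% of its reads in listed regions, so these totals are small by construction. The Ins1 exon 2 ratio of Ad-Ets-1 to Ad-GFP was 10.1 with 1 added to each count and 1.53 with a floor of 3 fragments, an alternative chosen after seeing the data.

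Ratios over a whole gene depended on which regions were summed. With listed reads as totals, the ratio of Ad-Ets-1 to Ad-GFP was 0.643 (0.334 to 1.20) for Ins2 and 0.966 (0.732 to 1.27) for Ins1, where the library totals gave 0.754 (0.571 to 0.994) for Ins1, so both intervals then span 1. For Ins2 the ratio was 1.19 (0.500 to 2.68) within 10 kb and 1.22 (0.492 to 2.84) for the promoter class, both spanning 1. It was 0.128 without the most read region, an alternative chosen after seeing the data. For Ins1 it was 4.58 (0.513 to 217) within 10 kb, which also spans 1. For the Ins1 promoter class it was 3.05, from the exon 2 region alone against the floor, without an interval. Within 10 kb, 2 regions of Ins2 and 2 of Ins1 were left. At a q of at most 0.05, a limit that few peaks of either list can pass, 0 peaks were left for Ins2 and 0 for Ins1 in both lists. At a fold of at least 3, 0 and 0 were left for Ins2 and 2 (Ad-Ets-1) and 0 (Ad-GFP) for Ins1. Of the whole Ad-Ets-1 list, 1.77% of peaks reach a fold of 3.01. Ranked by reads per kb, the Ins1 exon 2 region had 0.258% of promoter regions at or above it in Ad-Ets-1 cells and 1.06% in the input. At a q of at most 0.05, 1 transcription factor and 1 synthesis gene kept a promoter peak in Ad-Ets-1 cells, and 0 and 0 in Ad-GFP cells. These counts have no share of all genes beside them. The same 5 genes were nearest to each insulin region with 3 reads added. Insulin regions other than the Ins2 promoter held 12 reads or fewer in each library, so a difference at a single one of them is hard to tell from counting error.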
